A study of Mus musculus with 11 samples.

Results

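The 39 Hox cluster genes of the mouse were examined across the tubular segments, the endothelium and the stroma of control and fibrotic kidneys. They were every gene in the deposited matrices whose symbol was Hox, a cluster letter from a to d and a number, with nothing after it. This rule took 39 of the 28692 genes (11 Hoxa, 10 Hoxb, 9 Hoxc and 9 Hoxd genes) and left out the antisense and host transcripts Hoxd3os1, Hoxaas3, Hoxb5os and Hoxb3os. Single-cell RNA-seq (10x Chromium, 3′ chemistry) had been made from whole kidneys of male C57Bl/6 mice, in 11 libraries. The methods give 10 weeks as the age at injury and describe the naive controls as being of the same age. The 5 control libraries (Ctrl, N1, N2, AN1 and AN2) came from naive mice in 3 batches. The 3 UIR libraries (UIR, UIR1 and UIR2) came from kidneys 28 days after clamping of the left renal pedicle for 30 min (unilateral ischemia-reperfusion), and the 3 UUO libraries (UUO, UUO1 and UUO2) from kidneys 28 days after irreversible ligation of the left ureter (unilateral ureteral obstruction). No allele, transgene or drug was named in the labels. The labels gave no batch for the injured libraries, so injury and batch cannot be told apart.

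Hox genes encode homeodomain transcription factors that set position along the head-to-tail axis of the embryo. In each cluster the genes lie in the order in which they are switched on, from the anterior, low-numbered genes to the posterior, high-numbered ones, and all are read from the same strand. Members with the same number in different clusters are paralogs that arose by duplication. In the kidney the group 11 paralogs Hoxa11, Hoxc11 and Hoxd11 are required together for the growth of the metanephros, and adult tubules keep expressing many Hox genes.

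On the GRCm38 assembly the Hoxa cluster spanned chr6:52155590-52260880 on the minus strand. The Hoxb cluster lay at chr11:96194316-96368256, the Hoxc cluster at chr15:102921103-103036852 and the Hoxd cluster at chr2:74668310-74765142, each on the plus strand. The promoters of 5 members on which the results below turned are shown. Each is the 250 bases before a RefSeq start (GRCm38.p6, plus strand), none overlaps an annotated exon, and capitals mark a match to 1 of 3 motifs that were searched on both strands: TGATNNAT (bound by Pbx with Hox proteins), TGACAG (Meis and Pknox) and AGGTCA (a retinoic acid receptor half-site). Hoxb8 and Hoxb4 are the genes that were called higher in principal cells and in other distal classes after injury, at chr11:96281655-96281904 and chr11:96318017-96318266. Hoxd8, at chr2:74704365-74704614, was the most abundant member and was called lower in the thick ascending limb. Hoxd10, at chr2:74691641-74691890, and the second start of Hoxd11, at chr2:74682073-74682322, belong to the genes detected in the stroma of injured libraries.
Hoxb8: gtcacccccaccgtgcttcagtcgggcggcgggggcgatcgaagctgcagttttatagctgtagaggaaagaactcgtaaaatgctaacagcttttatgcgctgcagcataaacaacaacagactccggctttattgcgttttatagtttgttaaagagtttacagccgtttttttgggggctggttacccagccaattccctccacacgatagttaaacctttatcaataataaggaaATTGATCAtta
Hoxb4: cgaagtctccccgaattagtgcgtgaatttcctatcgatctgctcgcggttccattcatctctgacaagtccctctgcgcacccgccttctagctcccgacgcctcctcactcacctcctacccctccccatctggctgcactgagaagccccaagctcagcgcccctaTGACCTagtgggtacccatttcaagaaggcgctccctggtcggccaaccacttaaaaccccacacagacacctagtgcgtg
Hoxd8: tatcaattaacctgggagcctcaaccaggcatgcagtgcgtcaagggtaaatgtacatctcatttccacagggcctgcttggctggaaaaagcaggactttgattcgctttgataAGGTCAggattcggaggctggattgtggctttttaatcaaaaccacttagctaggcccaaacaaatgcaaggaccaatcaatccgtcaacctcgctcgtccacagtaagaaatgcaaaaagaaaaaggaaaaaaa
Hoxd10: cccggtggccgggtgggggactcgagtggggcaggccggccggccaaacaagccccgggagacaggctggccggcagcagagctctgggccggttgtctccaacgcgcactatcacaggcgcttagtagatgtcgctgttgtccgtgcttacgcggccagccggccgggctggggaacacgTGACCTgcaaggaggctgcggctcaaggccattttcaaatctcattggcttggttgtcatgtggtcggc
Hoxd11: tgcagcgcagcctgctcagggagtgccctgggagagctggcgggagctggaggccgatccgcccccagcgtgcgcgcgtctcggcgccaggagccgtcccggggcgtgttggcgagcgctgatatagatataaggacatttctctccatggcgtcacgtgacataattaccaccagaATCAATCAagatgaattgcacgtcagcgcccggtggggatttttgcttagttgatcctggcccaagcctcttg

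The capitals in Hoxb8 and Hoxd11 are reverse-strand matches to TGATNNAT, 11 and 73 bases before the start. Those in Hoxb4 and Hoxd10 are reverse-strand matches to AGGTCA, 81 and 69 bases before the start, and those in Hoxd8 are a forward match 135 bases before it. The table held 24 promoters of 22 members, and TGATNNAT was found in 4 of the 24, TGACAG in 2 and AGGTCA in 6. Among all 32851 promoters of the same length the shares with a match were 7.68%, 15.9% and 14.0%. A match here is a string of letters and not a measured binding site.

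Cells were recovered from the raw barcode matrices, clustered and named by marker genes. The limit of 30% mitochondrial UMIs, a sign of damaged or mitochondria-rich cells, removed 56.9% to 78.8% of the called barcodes in control, 23.8% to 37.2% in UIR and 3.15% to 7.96% in UUO libraries, so it moved with every contrast against control. After filtering, 40595 cells remained, with 1858 to 7442 per library, and 212 cell barcodes were kept in more than 1 library. The libraries held 49503312 to 117043590 UMIs in all, and the median cell 2397 to 5212 UMIs. The named classes were proximal tubule (PT), thin limb, thick ascending limb of the loop of Henle (LOH), distal tubule with connecting tubule (DT), collecting duct principal cells (CD-P), intercalated cells (CD-I), endothelium (Endo), a stroma of 3 fibroblast and mural classes (Fibro 1, 2 and 3), macrophages (Macro), podocytes and failed-repair tubular cells (frTEC). All markers of PT, DT, CD-P, CD-I, Endo, Fibro 1, Fibro 2, macrophages, podocytes and the thin limb were highest in their own class, but only 3 of 5 for LOH, 3 of 7 for Fibro 3 and 4 of 7 for frTEC. Levels are given as CPM, the UMIs of a gene per 1000000 UMIs of all cells of a class in 1 library, from pools of at least 20 cells. The 3′ chemistry counts each transcript once, so CPM needs no division by gene length. Values per library follow the order in which the libraries are listed above. In droplets without cells the summed Hox level was 142 to 448 CPM in control, 300.0 to 589 CPM in UIR and 398 to 586 CPM in UUO libraries, with the highest value of each group in its unnumbered library. The free RNA was estimated to give 2.24% to 16.1% of the UMIs of the LOH, DT, CD-P and CD-I pools, 6.24% to 20.05% of the stromal pools and 16.7% to 68.2% of the endothelial pools.

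Hox transcripts were most abundant in the thin limb, LOH, DT and CD-P and, among the tubular, stromal and endothelial classes, lowest in the proximal tubule. In control libraries the sum over the 39 members was 384 ± 14.9 CPM in PT (SD, n = 5), 621 ± 67.4 CPM in Endo (n = 5), 906 ± 99.4 CPM in the stroma (n = 3) and 983 ± 92.8 CPM in CD-I (n = 5). The sums of LOH (1423 ± 134 CPM), DT (1531 ± 78.4 CPM) and CD-P (1545 ± 57.3 CPM; n = 5 each) overlapped between neighbours in this order, as did those of the stroma and CD-I. The thin limb was highest, with 2241 and 2276 CPM in the 2 control libraries that held enough cells. Podocytes, the epithelial cells of the glomerular filter, held 1243 ± 88.3 CPM (n = 5), overlapping LOH, and their Hoxc genes summed to 601 to 814 CPM and their Hoxb genes to 7.61 to 21.1 CPM. Macrophages, which are not of nephron or stromal origin, held 50.4 ± 8.87 CPM (n = 5). A UMI of any member was found in 62.9% to 68.7% of control LOH cells after each cell was thinned to 1000 UMIs, in 75.7% to 76.9% of DT cells, 77.1% to 78.7% of CD-P cells and 28.3% to 32.8% of PT cells. In control macrophages, used as a low reference, the thinned share was 3.23% to 7.51%. Macrophages were not free of Hox transcripts, with Hoxb4 at 12.1 to 27.3 CPM in the control libraries. Without thinning, the LOH share was 83.3% to 93.5% and the macrophage share 11.3% to 17.1%.

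**Figure D1:**
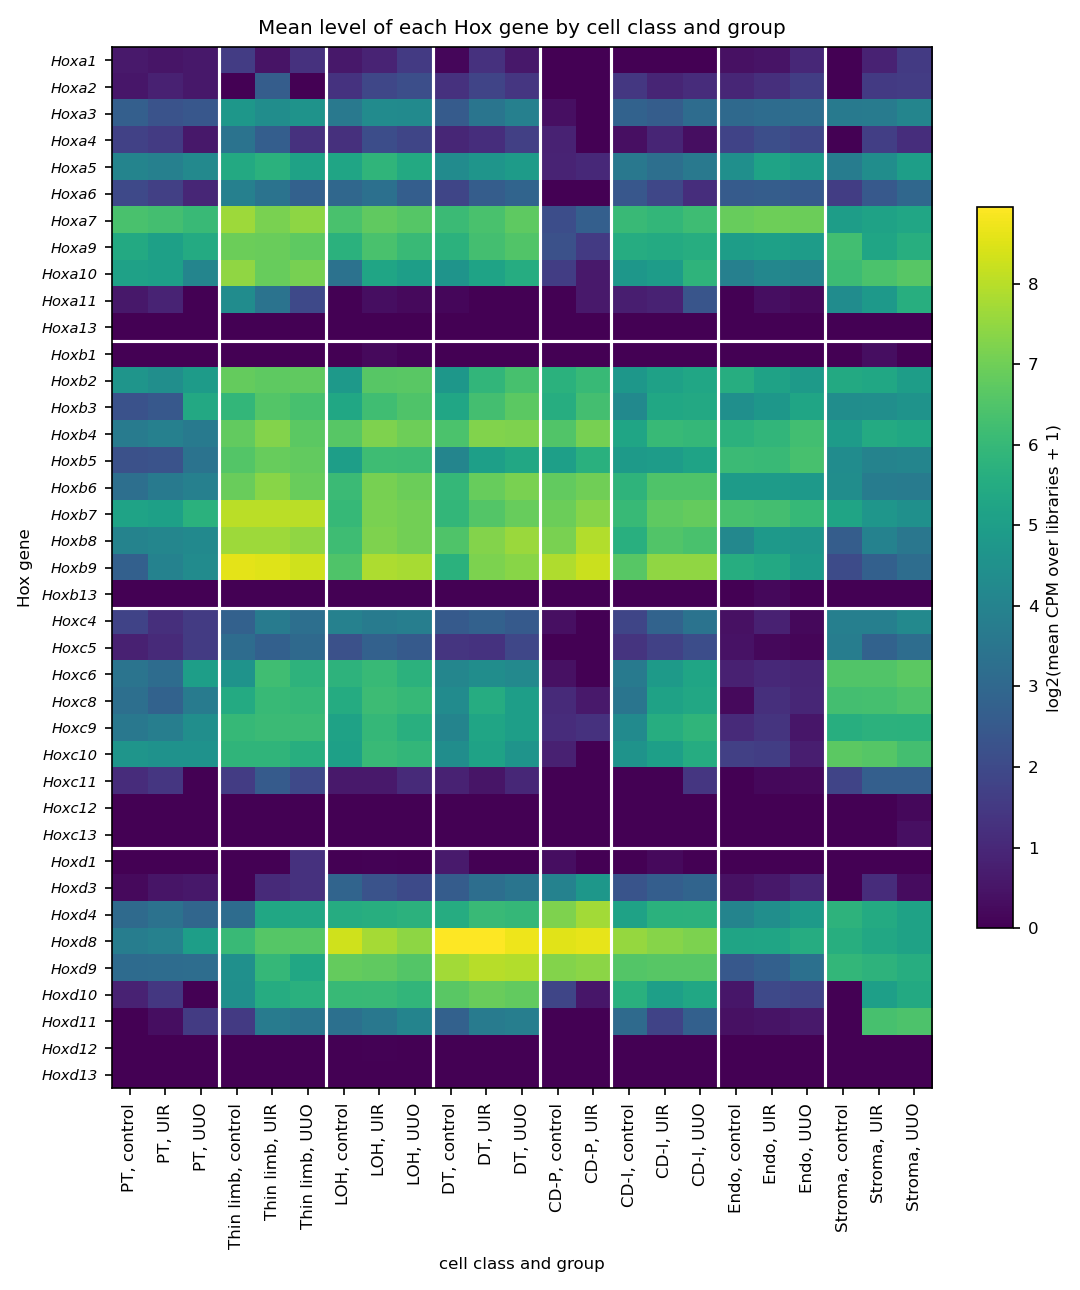
Mean CPM over libraries of each of the 39 Hox genes (rows, in cluster order) in each cell class and group (columns), as log2(mean CPM + 1). Hoxd8 was the brightest row of DT, CD-P and control LOH, Hoxb9 that of LOH in UIR and UUO, the Hoxa and Hoxc rows were near 0 in CD-P, and the Hoxc rows were near 0 in Endo.

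The most posterior and some of the most anterior genes were nearly silent. Hoxa13 and Hoxd13 had 0 UMIs in all kept cells, and Hoxc12 and Hoxd12 had 1 each, Hoxc13 had 2 and Hoxb13 had 3. Of the group 1 genes, which act in the embryonic hindbrain, Hoxb1 had 8 UMIs and Hoxd1 had 12. At the other end, Hoxd8 had 25048 UMIs, Hoxb9 20635, Hoxa7 17771 and Hoxb7 16678. In all, 29 members were abundant enough to be tested in at least 1 class and 10 in none.

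The classes differed in the proportions of the 4 clusters. PT was led by Hoxa7, at 81.9, 85.3, 82.3, 82.3 and 81.7 CPM in the 5 control libraries, and its summed Hoxa level of 181 to 193 CPM exceeded the Hoxb level of 99.8 to 119 CPM and the Hoxd level of 25.6 to 34.3 CPM in every library. In LOH, by contrast, Hoxa, Hoxb, Hoxc and Hoxd sums were 167 to 233, 384 to 584, 127 to 240.1 and 433 to 609.9 CPM. DT held the highest Hoxd sum, 813 to 901 CPM, beside a Hoxb sum of 407 to 459 CPM. The thin limb was led by Hoxb9 (mean 380.2 CPM of 2 control libraries), Hoxb7 (258 CPM) and Hoxb8 (200.4 CPM), and was the tubular class with the most Hoxa10 (175 CPM). The Hox genes were left out of the clustering, and these class differences are given as a description.

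**Figure D2:**
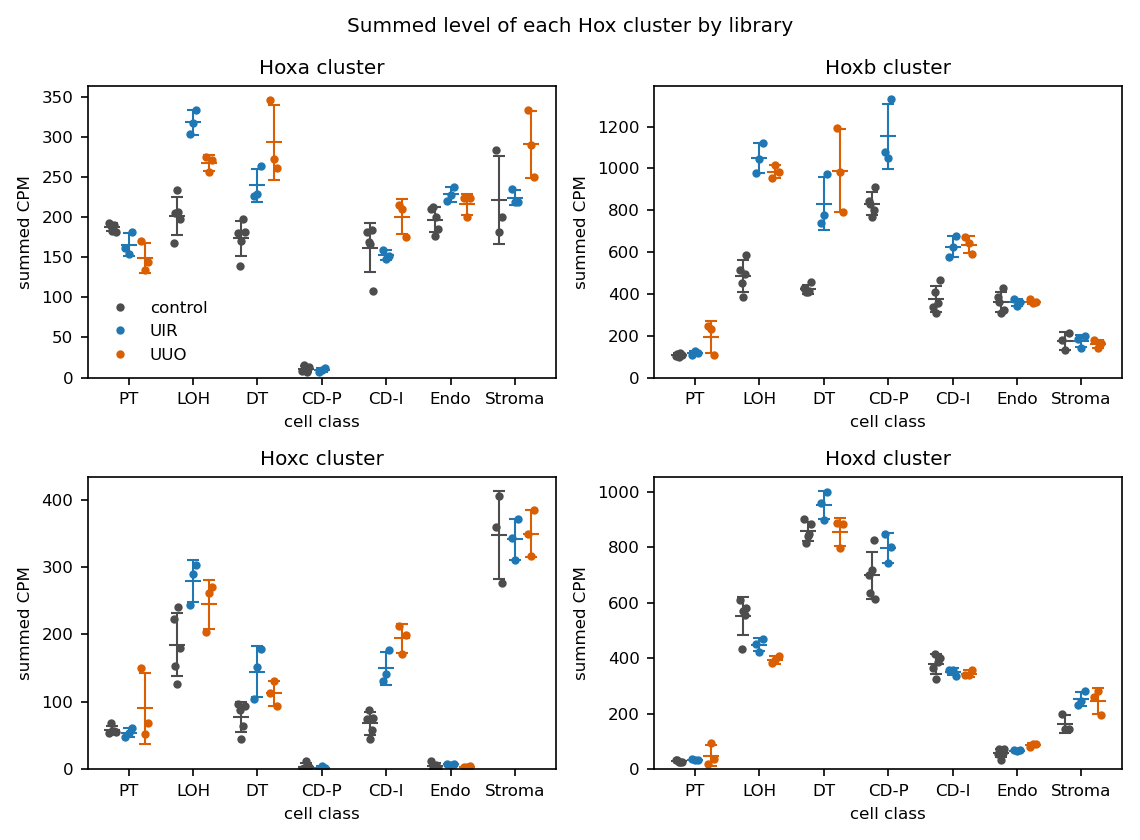
Summed CPM of the members of each Hox cluster (1 panel per cluster) in each cell class. Points are libraries, bars the mean and SD, and colours the control, UIR and UUO groups. The Hoxa and Hoxc sums of CD-P lay near 0 in every library, and the Hoxb sums of LOH and DT were higher in every UIR and UUO library than in any control library.

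Principal cells, which reabsorb water and sodium under vasopressin and aldosterone, differed from the rest of the nephron in which clusters they expressed. Their control Hoxa sum was 6.88 to 16.2 CPM and their Hoxc sum 0 to 11.7 CPM. These ranges overlapped those of control macrophages (4.02 to 11.99 and 0 to 12.1 CPM), whereas the Hoxb sum was 769.7 to 914 CPM and the Hoxd sum 613 to 827 CPM. Within the Hoxd cluster the level stopped at Hoxd9. Hoxd9 stood at 134, 162, 148, 199 and 132 CPM in the control principal cells and its neighbour Hoxd10 at 2.57, 6.09, 0, 1.38 and 3.15 CPM, while in DT Hoxd10 stood at 112, 86.6, 102, 82.4 and 117 CPM. Hoxd10 was thus lower in every principal pool than in any DT pool.

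The comparison with the mean of PT, LOH, DT and CD-I in the control libraries asked which members differed in principal cells. The Hox genes were left out of the clustering, but the classes were drawn from other genes of the same cells. This and the other tests between classes therefore describe how the classes differ. In edgeR's quasi-likelihood test with the library as a block, 12 of 21 tested members were higher and 9 were lower, against 24.1% higher and 24.4% lower of all 9403 genes. The 12 were Hoxb2 to Hoxb9, Hoxd3, Hoxd4, Hoxd8 and Hoxd9. Hoxb9 was higher by a log2 difference of 2.22 ± 0.09 (SE, adjusted p = 2.87e-23), Hoxd4 by 2.10 ± 0.12 (SE, adjusted p = 9.76e-18) and Hoxd8 by 1.08 ± 0.08 (SE, adjusted p = 2.45e-14). The 9 lower members were the tested Hoxa and Hoxc genes and Hoxd10. None of these 9 passed the filter on low counts in the fit of principal cells alone. They entered this test through the other classes, so their lower calls are a description and their log2 sizes are not given. Not all of the higher members exceeded each class: against DT alone Hoxb9 (1.94) and Hoxd4 (1.45) were higher on the log2 scale, but Hoxd8 (-0.70) and Hoxd9 (-0.72) were lower. Hoxb2 lost its call without library N2 (adjusted p = 0.054). A mitochondrial limit of 15% left 1 control library with a principal pool, so the comparison could not be repeated there with replicates of the principal cells. Reads of Hoxd3 and Hoxd4 share annotated sequence, so the split between these neighbours is uncertain, as it is for Hoxc5 and Hoxc10 and for Hoxa2 and Hoxa3.

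Endothelium carried Hoxa and Hoxb genes and almost no Hoxc. Its control sums were 177 to 212 CPM for Hoxa, 311 to 427 CPM for Hoxb and 1.47 to 12.1 CPM for Hoxc, the last within the range of macrophages. Against the mean of the tubular classes in control libraries, 4 of 21 tested members were higher and 12 lower (all genes: 36.1% higher, 34.5% lower). The lower ones included Hoxc6, Hoxc8, Hoxc9, Hoxc10 and Hoxd10, which had few UMIs in endothelium, so these lower calls are a description. Hoxb5, a regulator known in vascular precursors, was higher by 1.64 ± 0.14 (SE, adjusted p = 2.59e-14) and Hoxa7 by 1.26 ± 0.13 (SE, adjusted p = 1.45e-11) on the log2 scale. Hoxd9 differed by -4.40 ± 0.25 (SE, adjusted p = 1.01e-19), and Hoxd8 and Hoxb8 by -2.50 and -2.04. Single tubular classes could differ from this mean. In control, Hoxa7 averaged 115 CPM in Endo, 82.7 CPM in PT and 81.8 CPM in LOH. The whole Hoxa sum of principal cells was 6.88 to 16.2 CPM. Hoxb5 averaged 67.4 CPM in Endo, 31.5 CPM in LOH and 31.8 CPM in CD-P. Hoxa5 averaged 21.2 CPM in Endo and 37.3 CPM in LOH, and Hoxb2 46.7 CPM in Endo and 51.8 CPM in CD-P. The higher calls of Hoxa5 (0.67) and Hoxb2 (0.38) were lost when single libraries were left out (AN2 for Hoxa5; Ctrl, N2 or AN1 for Hoxb2). With the 15% limit 2 of 21 were higher and 5 lower (all genes: 33.9% higher and 16.1% lower). Within the endothelium, Hoxb5 averaged 98.97 CPM in glomerular, 69.3 CPM in peritubular and 29.7 CPM in arterial cells of control libraries, and Hoxb9 followed the opposite order, with 24.04, 30.4 and 73.4 CPM.

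The main question of the design was how the injured kidneys differed from control. Over the 7 classes with enough cells, 28 member and class tests of 146 were called higher and 5 lower in UIR, at an adjusted p under 0.05 over all genes of the class (all gene and class tests: 9.06% higher and 7.36% lower). In UUO, 27 of 134 tests in 6 classes were called higher and 9 lower (all gene and class tests: 11.4% higher and 9.96% lower), with no CD-P pool of 20 cells left. These fold changes were scaled by TMM, which centres on the typical gene. Scaling by total counts instead gave 44 higher and 1 lower call in UIR (all tests: 14.9% higher and 5.47% lower) and 39 and 4 in UUO (all tests: 19.6% higher and 6.74% lower). It moved the median change of all genes up by 0.23 in LOH for both injuries, by 0.30 and 0.38 in DT and by 0.24 and 0.35 in CD-I on the log2 scale. No member passed the test in UUO against UIR in edgeR's quasi-likelihood test (0 of 134, with 17 at an unadjusted p under 0.05, against 1.56% of all gene and class tests called), and DESeq2 called 1. Other alternatives that called members in this contrast are named in the closing section. Without library UIR2, 21 calls of 149 tests were left in UIR (19 higher and 2 lower; all tests: 7.57% higher and 5.85% lower). In the clusters with at least 20 control cells alone, 5 of 101 tests in 6 classes were called in UIR (5 higher and 0 lower; all tests: 2.68% higher and 1.8% lower) and 6 of 66 in 4 classes in UUO (5 and 1; all tests: 2.61% higher and 2.4% lower). A mitochondrial limit of 15% left at most 1 control pool of 20 cells in CD-P, CD-I and the stroma and 2 in LOH. In the 4 classes that could be fitted it gave 15 calls of 84 tests in UIR (13 higher and 2 lower; all tests: 5.77% higher and 4.92% lower) and 19 in UUO (15 and 4; all tests: 6.27% higher and 6.12% lower), where the 30% limit gave 22 and 26 of 90. The study had picked Hoxb3, Hoxb4, Hoxb6 to Hoxb9, Hoxd3 and Hoxd4 as higher in distal segments from these libraries, so their direction here is not independent evidence. Hoxd3 and Hoxd4 did not rise in LOH, with log2 values of -0.86 and -0.19 in UIR and -1.29 and -0.09 in UUO, none passing. In CD-P in UIR both were positive (0.68 and 0.47), and Hoxd4 passed. Hoxd3 was called in no class. The UIR and UUO contrasts share the control libraries, so similar values in both are not independent of each other.

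In the thick ascending limb all tested Hoxb genes but Hoxb4 were higher in both injuries, with Hoxa10 and Hoxc10, and Hoxd8 was lower. In UIR 9 of 27 tested members were higher and 1 lower (all genes: 16.7% higher and 14.0% lower), and in UUO 9 were higher and 2 lower (all genes: 19.8% higher and 16.5% lower). Under total counts 14 were higher and 1 lower in UIR (all genes: 28.1% higher and 10.2% lower). With TMM, the median log2 change of the members was 0.39 in UIR and 0.20 in UUO, beside 0.07 and 0.06 over all genes. The Hoxb sum was 384 to 584 CPM in control, 979 to 1122 CPM in UIR and 955 to 1018 CPM in UUO libraries, and the Hoxd sum 433 to 609.9, 423 to 469.6 and 381 to 409 CPM. The Hoxb sums of both injured groups lay above all controls.

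Hoxb9, the most posterior Hoxb gene expressed here, stood in LOH at 85.4, 79.2, 75.2, 72.6 and 131 CPM in control, 213, 233 and 249 CPM in UIR and 205, 231 and 222 CPM in UUO libraries. Every injured library lay above every control library, and AN2 was the highest control. The log2 fold change was 1.14 ± 0.15 (SE, adjusted p = 3.13e-06) in UIR and 1.06 ± 0.16 (SE, adjusted p = 7.52e-06) in UUO. Hoxb7 stood at 57.5, 69.9, 67.4, 61.4 and 56.97 CPM in control, 145, 135 and 140.2 CPM in UIR and 152, 123 and 119 CPM in UUO libraries. Hoxb7 is a long-used marker of the ureteric bud lineage, and both injured groups lay above all controls, with log2 fold changes of 0.95 ± 0.16 (SE, adjusted p = 4.81e-05) and 0.87 ± 0.16 (SE, adjusted p = 0.000143).

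Hoxb8 was likewise above control in every injured library, with 83.6, 60.6, 62.2, 72.6 and 75.97 CPM in control, 146, 144 and 155 CPM in UIR and 138, 131 and 125 CPM in UUO libraries of LOH, with changes of 0.80 ± 0.14 and 0.63 ± 0.14 (SE). Hoxb2, an anterior member known from the hindbrain, changed most among the Hoxb genes. It rose from 17.4, 37.3, 20.7, 19.5 and 45.1 CPM in control to 99.1, 90.8 and 106 CPM in UIR and 108, 109 and 82.2 CPM in UUO libraries, without overlap with control. Its log2 fold change was 1.65 ± 0.23 (SE, adjusted p = 3.58e-06) in UIR and 1.68 ± 0.23 (SE, adjusted p = 2.36e-06) in UUO. Hoxb5 (33.1, 37.3, 18.1, 33.5 and 35.6 CPM in control, 59.7, 76.9 and 77.7 CPM in UIR, 55.4, 70.96 and 82.2 CPM in UUO) and Hoxb6 (means 67.3, 138 and 122 CPM) were also called higher in both injuries, by 0.96 and 0.76 in UIR and 0.91 and 0.58 in UUO on the log2 scale.

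Hoxb3 stood at 52.3, 32.6, 25.9, 58.6 and 28.5 CPM in control, 64.2, 74.8 and 80.7 CPM in UIR and 66.8, 91.4 and 105 CPM in UUO libraries of LOH. Both injured groups lay above all controls, but the UIR call (0.62, adjusted p = 0.03) was lost without any 1 of N1, N2, AN2, UIR1 and UIR2, whereas the UUO call (0.86) was kept. Hoxb4, the Hoxb gene with the highest mean in control LOH (64.8 to 140.1 CPM), did not pass the test in either injury, with log2 values of 0.34 and 0.09. Hoxa10 stood at 5.23, 4.66, 7.78, 8.38 and 21.4 CPM in control, 39.1, 38.7 and 34.8 CPM in UIR and 38.9, 25.3 and 30.9 CPM in UUO libraries. The injured values lay above all controls, AN2 being the nearest, and the log2 fold changes of 1.72 and 1.48 were the largest among the Hoxa genes. Hoxc10, the only Hoxc member called in LOH, averaged 32.9 ± 9.66, 65.9 ± 4.35 and 60.2 ± 4.33 CPM (SD, n = 5, 3 and 3), and its UUO call was lost without N2 (adjusted p = 0.061).

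Hoxd8 moved the other way. It stood in LOH at 336, 233, 334, 332 and 325 CPM in control, 212, 205 and 216 CPM in UIR and 168, 179 and 171 CPM in UUO libraries. N1 was the lowest control library and still lay above every injured library. The log2 fold change was -0.82 ± 0.13 (SE, adjusted p = 3.72e-05) in UIR and -1.11 ± 0.14 (SE, adjusted p = 5.39e-07) in UUO, and under scaling by total counts it was -0.58 (adjusted p = 0.000811) and -0.87 (adjusted p = 7.93e-06). Its neighbour Hoxd9 was called lower in UUO (-0.57 ± 0.15 SE, adjusted p = 0.0054), but not without library Ctrl (adjusted p = 0.0548). Under total counts the Hoxd9 call was lost too. Hoxd3 had few UMIs, with 8.71, 9.32, 5.18, 8.38 and 0 CPM in control, 2.59, 3.605 and 5.45 CPM in UIR and 2.95, 2.51 and 3.51 CPM in UUO libraries of LOH, and did not pass.

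The LOH pools of the groups were made of different clusters. Only 110 of 1314 UIR and 8 of 778 UUO cells lay in the LOH clusters that held at least 20 control cells. In these clusters alone no member was called in UIR (0 of 19 tested in edgeR's quasi-likelihood test, 3 at an unadjusted p under 0.05, against 1.09% of genes), with log2 values of 0.04 (adjusted p = 0.977) for Hoxb9 and -0.09 (adjusted p = 0.93) for Hoxd8. As a description, Hoxb9 stood at 89.7 and 67.6 CPM in the clusters with control cells, and at 233 and 228 CPM in those of 1241 and 735 cells that held 2 and 0 control cells. Hoxd8 stood at 268 and 403 CPM in the first pair and 230.1 and 129 CPM in the second. Other measures moved with injury in the LOH pools. The LOH markers summed to 19554 to 24265 CPM in control, 13422 to 14145 CPM in UIR and 7592 to 8835 CPM in UUO, the 7 macrophage markers summed to 2.59 to 7.12 CPM in control, 56.3 to 112 CPM in UIR and 91.6 to 105 CPM in UUO. The CD-P markers, of the class that was high in Hoxb9, summed to 8.38 to 37.98 CPM in LOH pools of control, 77.5 to 95.5 CPM in UIR and 53.4 to 67.7 CPM in UUO, against 17558 to 25652 CPM in control CD-P pools. The connecting tubule markers summed to 4431 to 4826 CPM in LOH pools of control, 2443 to 3196 CPM in UIR and 1095 to 1823 CPM in UUO. The PT markers summed to 267 to 500.1, 65.0 to 129.8 and 19.8 to 29.2 CPM. The median cell held 3868 to 6163 UMIs in control and 9355 to 16302 in injured libraries. The part of these in the Hox changes was not tested; the macrophage pools themselves held 60.2 to 85.2 CPM of Hox transcripts in UIR and 40.7 to 82.3 CPM in UUO.

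**Figure D3:**
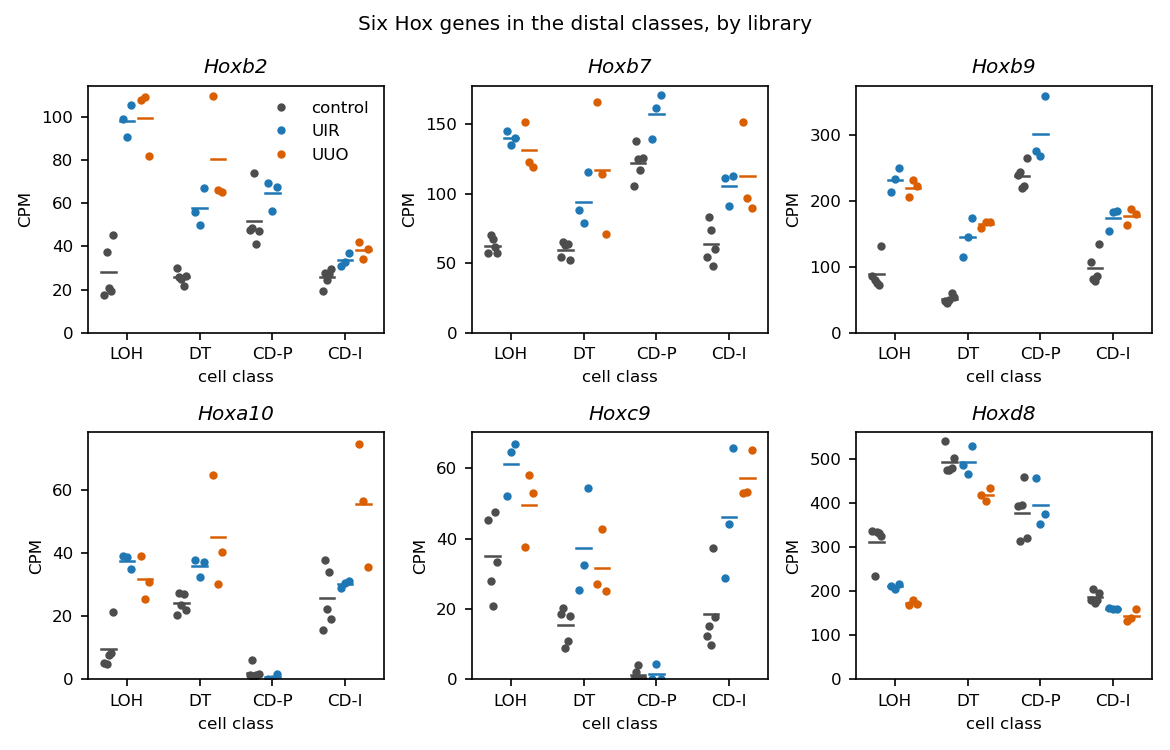
CPM of 6 Hox genes in LOH, DT, CD-P and CD-I. Points are libraries, horizontal lines group means, and UUO had no CD-P pool. Hoxb2, Hoxb7 and Hoxb9 were higher in every injured LOH library than in any control library, Hoxd8 was lower in each of them, and Hoxa10 and Hoxc9 were near 0 in CD-P.

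In the distal tubule, too, most tested Hoxb genes were higher in both injuries. In UIR 9 of 22 tested members were called higher and 1 lower (all genes: 13.5% higher and 15.1% lower), and in UUO 8 were higher and 1 lower (all genes: 14.9% higher and 15.3% lower). Under total counts 15 were higher and 0 lower in UIR (all genes: 34.3% higher and 8.25% lower) and 13 and 0 in UUO (all genes: 36.2% higher and 7.81% lower). With TMM, the median log2 change of the members was 0.47 and 0.50, beside 0.02 and 0.03 over all genes. Hoxb9 stood at 47.96, 44.8, 49.4, 59.5 and 53.2 CPM in control, 115, 144 and 173 CPM in UIR and 158, 168 and 167 CPM in UUO libraries. Every injured library lay above every control library, with log2 fold changes of 1.19 ± 0.14 (SE, adjusted p = 2.49e-07) and 1.32 ± 0.15 (SE, adjusted p = 2.03e-07). Hoxb2 stood at 29.8, 25.99, 24.7, 21.6 and 26.1 CPM in control, 56.1, 49.8 and 67.3 CPM in UIR and 109.9, 66.5 and 65.2 CPM in UUO libraries. Hoxb3 stood at 40.5, 36.1, 35.9, 33.8 and 45.2 CPM in control, 71.6, 70.9 and 88.4 CPM in UIR and 119, 99.7 and 90.1 CPM in UUO libraries. For both the injured libraries lay above all controls, and the UUO library was the highest of its group.

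Hoxb3 changed in DT by 0.68 ± 0.14 in UIR and 1.04 ± 0.16 in UUO on the log2 scale (SE), Hoxb6 by 0.61 ± 0.14 and 0.85 ± 0.16, and Hoxb8 by 0.51 ± 0.13 and 0.79 ± 0.14. Hoxb5 was lower in abundance, at 18.1, 20.2, 12.3, 10.8 and 17.1 CPM in control, 27.6, 36.5 and 31.4 CPM in UIR and 49.7, 41.1 and 30.7 CPM in UUO. Hoxc8 and Hoxc9, Hoxc genes that pattern the trunk, were called in UIR only, a difference between injuries that did not pass its own test. Hoxc8 stood at 23.4, 20.2, 8.98, 18.9 and 23.1 CPM in control and 30.7, 48.8 and 56.4 CPM in UIR, and Hoxc9 at 18.7, 20.2, 8.98, 10.8 and 18.1 CPM in control and 25.4, 32.4 and 54.5 CPM in UIR. Every UIR library lay above every control library for both genes. Several DT calls rested on 1 library: Hoxb4 and Hoxc9 in UIR were lost without UIR2 (adjusted p = 0.0515 and 0.0951), Hoxb5 in UIR without UIR1 (0.088), and Hoxb7 in UUO without the UUO library (0.314), while the UUO call of Hoxb4 was lost without any 1 of 8 libraries.

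Hoxd8, the most abundant member of DT, depended on the scaling. Its levels were 539, 474, 475, 478 and 502 CPM in control, 486, 466 and 529 CPM in UIR and 417, 403 and 433 CPM in UUO libraries, so control and UIR overlapped on the CPM scale. The TMM-scaled log2 fold change was -0.31 ± 0.12 (SE, adjusted p = 0.0438) in UIR and -0.62 ± 0.12 (SE, adjusted p = 0.000302) in UUO, and under total counts 0.00 (adjusted p = 0.985) and -0.24 (adjusted p = 0.112), with neither call kept. Of the UIR cells of DT, 364 of 682 lay in clusters with at least 20 control cells, and of the UUO cells 66 of 151. There Hoxb9 was the only member called in UIR, 1 of 20 tested against 4.57% of genes, with a log2 fold change of 0.75 (adjusted p = 0.0226), and it was 1.45 (adjusted p = 0.00215) in UUO. Hoxb3, Hoxb5, Hoxb6 and Hoxc8 turned to negative values in some of these fits. The macrophage markers summed to 3.197 to 19.1 CPM in control, 94.7 to 139 CPM in UIR and 96.4 to 131 CPM in UUO libraries of DT. The connecting tubule markers summed to 29609 to 50553 CPM in control, 13796 to 22332 CPM in UIR and 5944 to 11973 CPM in UUO. Cells of the distal convoluted tubule were 161 of 639 DT cells in control, 22 of 682 in UIR and 7 of 151 in UUO. In the connecting tubule cells alone the Hoxb sum was 346 to 395 CPM in control, 743 to 986 CPM in UIR and 811 to 1191 CPM in UUO, again higher in every injured library than in any control. The part of the marker levels in the DT changes was not tested.

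**Figure D4:**
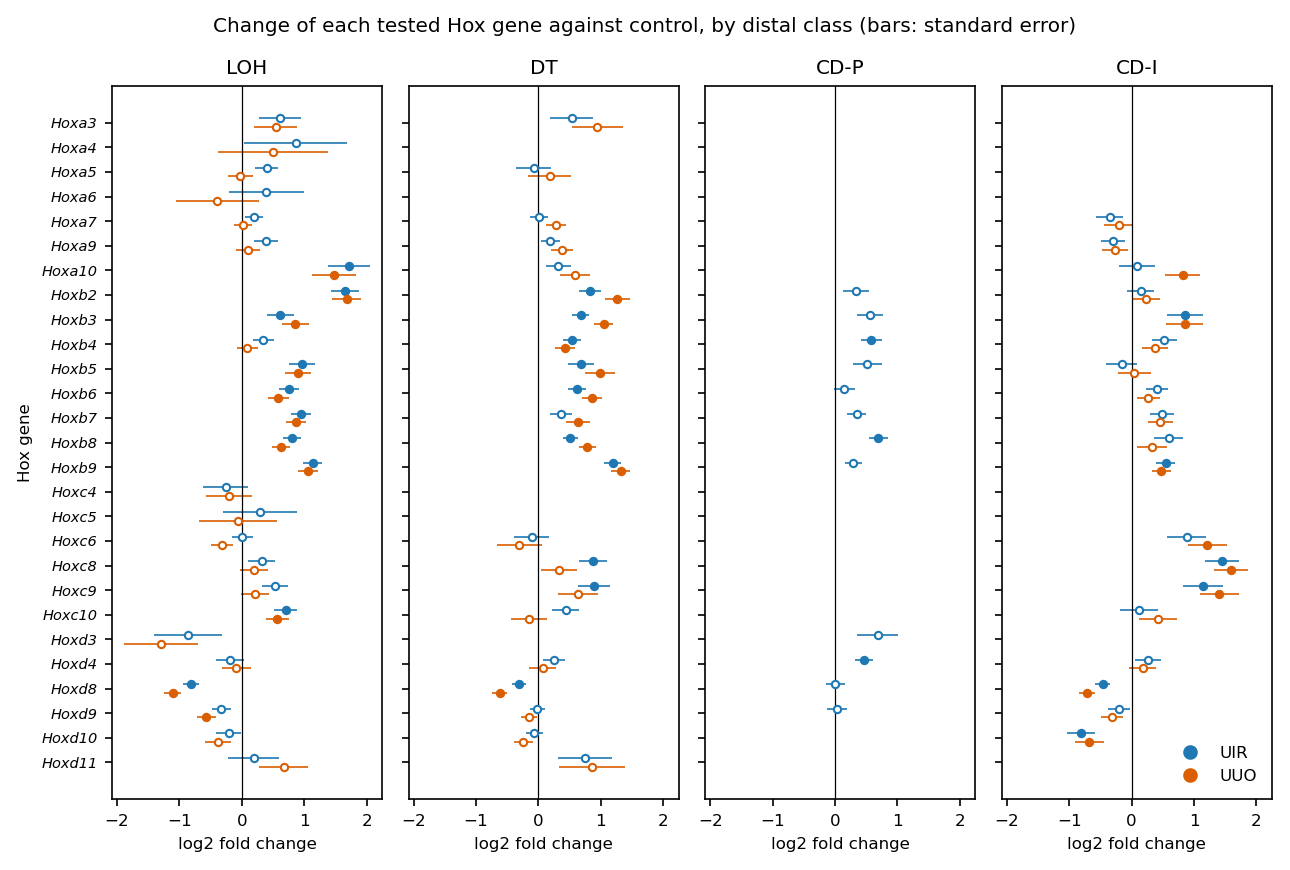
Log2 fold change against control of each tested Hox gene (rows) in LOH, DT, CD-P and CD-I (panels), for UIR and UUO (colours). Filled points passed the test at an adjusted p under 0.05, open points did not, and bars are standard errors. Hoxb2 to Hoxb9 lay right of 0 in LOH and DT, and Hoxd8 left of 0 in LOH, DT and CD-I but at 0.01 in CD-P.

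Principal cells again held little Hoxa and Hoxc after UIR. Hoxa and Hoxc sums were 6.34 to 12.3 and 0 to 4.25 CPM, within the control ranges or below them. Of 12 tested members 3 were called higher and 0 lower (all genes: 2.09% higher and 3.0% lower; at an unadjusted p under 0.05, 8 members). Hoxb8 stood at 162, 119.7, 113, 149 and 157 CPM in control and 228, 205 and 284 CPM in UIR libraries, without overlap, and its change was 0.70 ± 0.15 (SE, adjusted p = 0.00332), lost without UIR2 (adjusted p = 0.0729). Hoxb4 (0.58 ± 0.17 SE, adjusted p = 0.0391) and Hoxd4 (0.47 ± 0.14 SE, adjusted p = 0.0496) also passed, losing their calls without any 1 of 5 and 6 libraries. Hoxb9, already high at 238, 243, 219, 221 and 264 CPM in control, was 276, 268 and 358 CPM in UIR, with a log2 value of 0.29 that did not pass. Hoxd8 was 392, 315, 395, 459 and 321 CPM in control and 456, 353 and 375 CPM in UIR, and these ranges overlapped. The CD-P markers summed to 17558 to 25652 CPM in control and 12191 to 15896 CPM in UIR libraries of CD-P and the macrophage markers to 0 to 29.6 and 78.7 to 108 CPM, and their part was not tested.

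The change in LOH, DT and CD-I was compared with that in principal cells by an interaction term. Of 24 tested members, Hoxb9 rose more in the other distal classes (difference of log2 fold changes 0.68 ± 0.12 SE, adjusted p = 6.54e-05) and Hoxd8 fell more there (-0.55 ± 0.12 SE, adjusted p = 0.000567), against 6.98% higher and 5.56% lower of all genes. With 1 of 24 each way, not above these shares, the count is not read as a result about the members. For LOH alone, 4 of 24 members differed upward and 2 downward (all 9986 genes: 951 upward and 826 downward). Upward were Hoxb2 (1.31), Hoxb6 (0.58), Hoxb7 (0.56) and Hoxb9 (0.85), and downward Hoxd4 (-0.63) and Hoxd8 (-0.84). Of these, Hoxb6 lost its call without any 1 of 6 libraries, Hoxd4 without any 1 of 8 and Hoxb7 without AN2 or UIR. These values rest on which cells are called principal. A cluster of 555 cells, none of them from a control library, scored nearly alike for principal cells (0.448) and connecting tubule (0.442) and was left unnamed. Its UIR pools held Hoxa sums of 205 to 251 CPM and Hoxc sums of 131 to 165 CPM, both above those of the principal pools. Counted as principal cells, it gave 12 members higher and 0 lower of 22 in UIR (all genes: 11.1% higher and 9.91% lower) and 13 higher and 5 lower of 22 in UUO (all genes: 17.5% higher and 16.9% lower). The interaction was then called for 16 of 25 members, 5 higher and 11 lower (all genes: 9.47% higher and 7.24% lower).

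In intercalated cells, which secrete acid or base, Hoxc8 and Hoxc9 were higher in both injuries. In UIR 4 of 19 tested members were higher and 2 lower (all genes: 7.37% higher and 8.5% lower), and in UUO 6 higher and 2 lower (all genes: 12.2% higher and 13.3% lower). Under total counts 9 were higher and 0 lower in UIR (all genes: 19.3% higher and 4.72% lower) and 12 and 1 in UUO (all genes: 32.7% higher and 7.29% lower). Hoxc8 stood at 8.73, 12.6, 9.83, 6.804 and 13.2 CPM in control, 31.9, 33.97 and 37.9 CPM in UIR and 35.2, 35.2 and 50.1 CPM in UUO libraries. Both injured groups lay above all controls, and the log2 fold changes were 1.45 ± 0.27 (SE, adjusted p = 0.000451) and 1.60 ± 0.27 (SE, adjusted p = 8.27e-05). Hoxc6 stood at 17.5, 22.6, 4.91, 3.402 and 11.7 CPM in control, 27.7, 22.6 and 33.8 CPM in UIR and 35.2, 37.7 and 38.7 CPM in UUO libraries, and passed in UUO (1.21 ± 0.31 SE, adjusted p = 0.00476). Hoxc9 stood at 12.2, 15.1, 9.83, 37.4 and 17.6 CPM in control, 28.8, 44.1 and 65.9 CPM in UIR and 52.9, 53.2 and 65.3 CPM in UUO. Library AN1 overlapped the UIR range, and the UIR call was lost without UIR2 (adjusted p = 0.0804), while the UUO call (1.40) was kept without any 1 library. The make-up of the class differed between the groups: type B cells, which secrete base, were 98 of 237 CD-I cells in control, 93 of 461 in UIR and 8 of 208 in UUO, and type A cells, which secrete acid, 51, 211 and 164. In pools of at least 20 type B cells the Hoxc sums overlapped, with 77.6 to 99.1 CPM in 3 control and 82.6 to 114 CPM in 3 UIR libraries. Type A pools held 52.9 CPM in the 1 control library with enough cells, 141 to 208 CPM in UIR and 177 to 213 CPM in UUO libraries. The part of the subtype mix in the CD-I changes was not tested.

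Hoxd8 was lower in CD-I too, at 179.8, 204, 172, 180.3 and 195 CPM in control, 162, 159.7 and 158 CPM in UIR and 133, 138 and 159.5 CPM in UUO libraries. The CPM ranges of injured and control libraries did not overlap. Its log2 fold change was -0.46 ± 0.12 (SE, adjusted p = 0.0103) in UIR, lost under total counts and without UIR2, and -0.71 ± 0.13 (SE, adjusted p = 0.000139) in UUO, kept in both. Hoxd10 was called lower in UIR (-0.80) and UUO (-0.68), with 55.9, 47.8, 36.9, 78.2 and 35.2 CPM in control, 35.6, 34.6 and 27.2 CPM in UIR and 44.7, 34.3 and 37.98 CPM in UUO, and both calls were lost under total counts. The calls of Hoxb3 and Hoxb9 in both injuries and of Hoxa10 in UUO were each lost without any 1 of 4 to 7 libraries. Of the CD-I cells, 111 of 461 in UIR and 11 of 208 in UUO lay in clusters with at least 20 control cells, where no member was called in UIR (0 of 12 tested in edgeR's quasi-likelihood test, 1 at an unadjusted p under 0.05, against 0.408% of genes) and UUO could not be fitted. Macrophage markers summed to 0 to 14.7 CPM in control, 85.6 to 121 CPM in UIR and 72.9 to 145 CPM in UUO libraries of CD-I. In the same pools the connecting tubule markers summed to 3533 to 7092 CPM in control, 1485 to 2523 CPM in UIR and 1175 to 2249 CPM in UUO. The CD-P markers summed to 515 to 2758, 547 to 1457 and 295 to 565 CPM. The part of these markers was not tested.

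In the proximal tubule few members changed. Of 24 tested, 1 was higher and 1 lower in each injury (all genes in UIR: 10.3% higher and 5.07% lower; in UUO: 5.51% higher and 4.46% lower). Hoxb9 was low throughout, at 5.398, 5.75, 5.88, 4.46 and 7.04 CPM in control and 12.1, 18.8 and 13.01 CPM in UIR libraries, without overlap, and rose by 1.37 ± 0.22 (SE, adjusted p = 0.000183). Hoxa9 was called lower in UIR (-0.42 ± 0.12 SE, adjusted p = 0.0238), but not without AN1 or UIR1. In UUO only 50 to 108 PT cells were left per library. Hoxb3 was called higher there (2.27 ± 0.51 SE, adjusted p = 0.00713), on 75.4, 40.6 and 8.68 CPM against 3.01 to 4.57 CPM in control. The highest of these came from 4 UMIs of 53050, and the call was lost without UUO1 (adjusted p = 0.0944). Hoxa10 was called lower in UUO (-0.99), lost without any 1 of 5 libraries. Hoxa7, the leading member of PT, was 73.8, 72.5 and 82.6 CPM in UIR and 56.6, 75.5 and 66.5 CPM in UUO and did not pass. Macrophage markers summed to 8.62 to 13.4 CPM in control, 134 to 233 CPM in UIR and 152 to 867 CPM in UUO libraries of PT. Endothelial markers summed to 5.21 to 7.99 CPM in control, 15.6 to 23.2 CPM in UIR and 29.0 to 151 CPM in UUO. LOH markers summed to 64.6 to 98.3, 93.9 to 112 and 26.0 to 418 CPM. The part of these markers was not tested. The failed-repair tubular cells, with 1 pool of at least 20 cells in each injury, held summed Hox levels of 669 CPM in UIR and 632 CPM in UUO, with Hoxd8 at 25.2 and 17.8 CPM and no replicate.

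In the endothelium no member was called in UIR (0 of 17 in edgeR's quasi-likelihood test, 3 at an unadjusted p under 0.05; all genes: 1.08% higher and 0.709% lower). In UUO 1 was higher and 3 lower (all genes: 5.65% higher and 6.37% lower). Hoxb2 stood at 46.9, 44.2, 55.4, 54.3 and 32.6 CPM in control, 39.8, 36.00 and 28.5 CPM in UIR and 30.8, 28.1 and 26.6 CPM in UUO libraries, and its UUO change of -0.79 ± 0.17 (SE, adjusted p = 0.00515) was kept in every fit without 1 library. Of the endothelial cells, 600 of 630 in control, 798 of 1575 in UIR and 708 of 2030 in UUO lay in clusters with at least 20 control cells. In these alone 3 of 15 tested members were called in UUO, against 7.48% of genes, and the Hoxb2 change was -0.71 (adjusted p = 0.0317). Arterial cells were 184 of the 630 endothelial cells in control, 303 of 1575 in UIR and 304 of 2030 in UUO, and peritubular cells 204, 485 and 761, and the part of this mix was not tested. In LOH and DT the call of Hoxb2 had been in the other direction, and the difference between these classes was not tested. Hoxb9 was 42.1, 47.2, 21.5, 64.5 and 55.9 CPM in control and 27.3, 27.2 and 29.98 CPM in UUO. Its range in control reached below that in UUO through N2, and its call (-0.80) was lost without AN1, AN2 or UUO1. Hoxd4 (0.80) and Hoxb7 (-0.46) lost their calls without any 1 of 5 and 10 libraries. The endothelial pools held 2.93 to 317 CPM of macrophage markers in control and 186 to 316 CPM in UUO. Their connecting tubule markers, in contrast, summed to 119 to 367 CPM in control and 12.2 to 20.9 CPM in UUO, and their LOH markers to 76.1 to 118 and 20.1 to 41.9 CPM. The part of these and of the free RNA was not tested.

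In injured libraries the stroma, which makes the matrix of the fibrotic kidney, was compared with the mean of the tubular classes. It was higher than this mean in most Hoxa genes, in the tested Hoxc genes and in Hoxd10 and Hoxd11. Against the mean of the tubular classes in injured libraries, 14 of 27 tested members were higher and 13 lower (all genes: 33.6% and 33.4%). The higher ones included Hoxa11 (6.07 ± 0.27 SE), Hoxd11 (5.57 ± 0.23 SE, adjusted p = 2.4e-21), Hoxc6 (3.75) and Hoxc10 (3.097). Hoxa11 passed the filter on low counts in the stroma only among the fitted classes, so its value is a description. The lower ones included every tested Hoxb gene, from Hoxb9 (-4.13 ± 0.17 SE, adjusted p = 2.08e-22) to Hoxb2 (-0.60), and 1 Hoxa gene, Hoxa7 (-0.48). Within the Hoxd cluster, Hoxd3, Hoxd4, Hoxd8 and Hoxd9 were lower than the tubular mean and Hoxd10 and Hoxd11 higher. Single tubular classes could differ from this mean. In LOH, Hoxd10 averaged 65.8 CPM in UIR and 58.4 CPM in UUO, against 32.3 and 42.0 CPM in the stroma. Hoxa3, Hoxa5 and Hoxa9 also averaged higher in LOH in both injuries. Hoxa10, Hoxc6, Hoxc8, Hoxc10 and Hoxd11 averaged higher in the stroma. Hoxc10 averaged 94.4 and 76.6 CPM in the stroma and 65.9 and 60.2 CPM in LOH (UIR and UUO). Hoxc8 averaged 78.5 and 87.3 CPM in the stroma and 68.6 and 63.6 CPM in LOH. Hoxd11 lay further apart, with 81.1 and 87.3 CPM against 10.97 and 15.6 CPM. Principal cells, also a tubular class, held Hoxc sums of 0 to 4.25 CPM in UIR. The difference from LOH alone was not tested.

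Only 86 stromal cells came from control libraries, and 81 of them lay in 1 cluster, named Fibro 3. Of 25 tested members 2 were higher and 0 lower in each injury (all genes in UIR: 10.8% higher and 5.72% lower; in UUO: 11.6% higher and 5.52% lower). These were Hoxd10 and Hoxd11, which had 0 UMIs in control and passed the filter on low counts only through the injured groups, so this count is a description. Hoxd11 had 0 UMIs in the 3 control pools of the stroma (N1, N2 and AN1; Ctrl and AN2 had too few cells and were left out of the fit), and stood at 61.7, 97.6 and 83.9 CPM in UIR and 98.9, 114 and 49.2 CPM in UUO libraries. Hoxd4, Hoxd8 and Hoxd9, in contrast, averaged 54.2, 48.2 and 60.3 CPM in the control stroma. Hoxd10 had 0 UMIs in control, and stood at 27.1, 35.4 and 34.3 CPM in UIR and 52.9, 43.2 and 29.96 CPM in UUO. The control pools held 396174 UMIs together, so a count of 0 allows up to 7.57 CPM (3 UMIs over the group, counting error only). Against this floor Hoxd11 was at least 10.7-fold higher in UIR and 11.5-fold higher in UUO, and Hoxd10 at least 4.26-fold and 5.55-fold higher.

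The stromal cells of the groups lay in different clusters. In the cluster that held the control cells, Hoxd11 had 0 UMIs in 81 control cells, 1 in 59 UIR cells and 2 in 153 UUO cells. In the other stromal clusters, nearly all from injured libraries, it stood at 87.5 CPM in UIR and 103 CPM in UUO (95% exact Poisson intervals 79.2 to 96.4 and 93.8 to 113, counting error only). Among the stromal classes of injured libraries Hoxd11 marked Fibro 1, with 109, 129.5 and 134 CPM in UIR and 133, 151 and 74.6 CPM in UUO. In Fibro 2 it stood at 2.96, 2.397 and 2.95 CPM in UIR and 12.5 and 7.26 CPM in the 2 UUO libraries with a pool. No Fibro 2 or Fibro 3 pool reached any Fibro 1 pool. The study also picked Hoxd11 in this class from these libraries, so its direction is not independent evidence.

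Fibro 1 was compared with the mean of Fibro 2 and Fibro 3 in the injured libraries. Fibro 3 had a pool in only 1 UIR library (49 cells) and in 3 UUO libraries, and Fibro 2 in 3 UIR and 2 UUO libraries. Of 23 tested members 5 were higher and 8 lower (all genes: 26.9% and 19.7%). The higher members included Hoxd11 (4.95 ± 0.25 SE) and Hoxa11 (2.24 ± 0.30 SE). Both were near 0 in the UIR pools of Fibro 2, so their values are a description. The others were Hoxd10 (1.82 ± 0.20 SE, adjusted p = 1.28e-07) and Hoxa10 (1.33 ± 0.14 SE, adjusted p = 7.71e-08), and Hoxc8 (0.36), whose call did not hold in every fit without 1 library. The lower ones were Hoxd4 (-2.07 ± 0.22 SE, adjusted p = 4.8e-08), Hoxb8 (-1.39), Hoxa7 (-1.39), Hoxd9 (-1.04), Hoxb2 (-0.95), Hoxb7 (-0.70), Hoxb4 (-0.63) and the group 10 gene Hoxc10 (-0.47 ± 0.13 SE, adjusted p = 0.0053). Hoxa11 stood in Fibro 1 at 45.1, 32.8 and 28.2 CPM in UIR and 93.7, 59.3 and 57.4 CPM in UUO, and in Fibro 2 at 0, 2.397 and 2.95 CPM in UIR and 15.01 and 3.63 CPM in UUO. Hoxa11 was not absent from control stroma, whose pools were Fibro 3 cells. It stood there at 28.3, 6.24 and 23.1 CPM in N1, N2 and AN1, and N1 reached the UIR range of Fibro 1. Fibro 1 itself was not uniform: a cluster of 64 cells, 62 of them from UUO, held 14.2 CPM of Hoxd11, and the other Fibro 1 clusters 91.9 to 156 CPM. Macrophage markers summed to 0 to 6.24 CPM in control, 101 to 206 CPM in UIR and 183 to 229 CPM in UUO stromal pools, and their part was not tested.

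**Figure D5:**
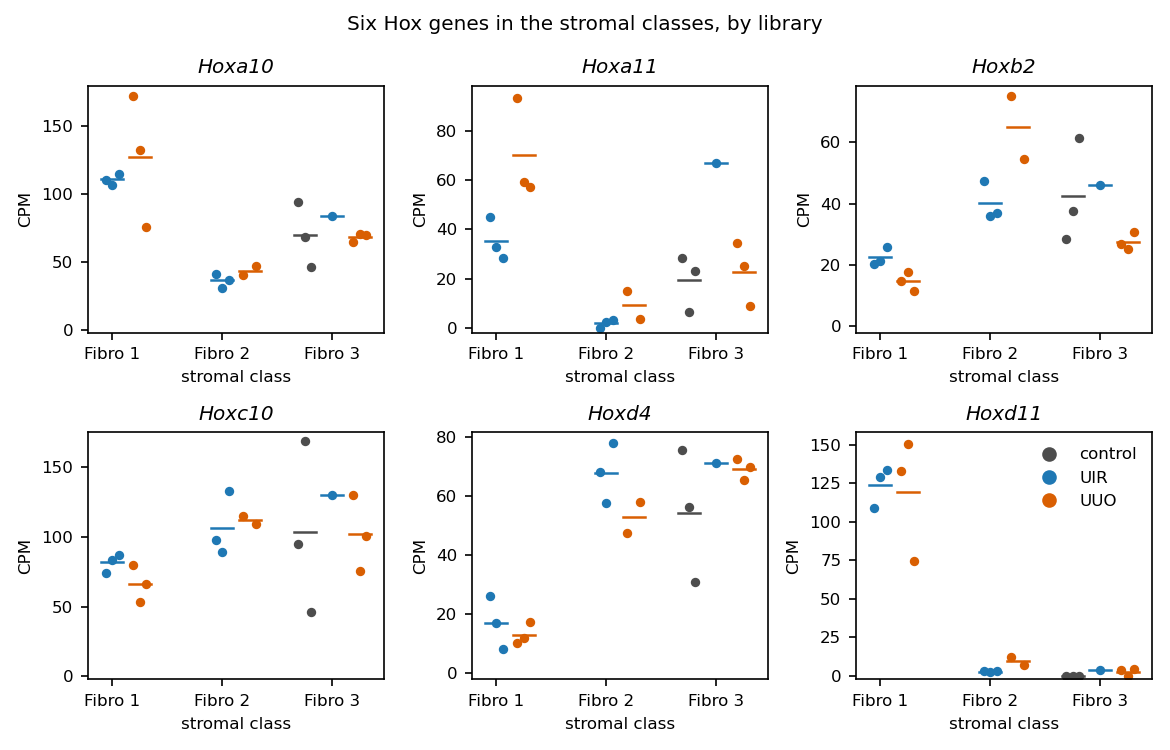
CPM of 6 Hox genes in the 3 stromal classes. Points are libraries, horizontal lines group means, and control libraries had pools of Fibro 3 only. Hoxd11 stood at 74.6 CPM or more in every Fibro 1 pool and at 12.5 CPM or less in every other pool, whereas Hoxd4 was lower in Fibro 1 than in Fibro 2 and Fibro 3.

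Genes that work with Hox proteins or on Hox clusters were read from 3 lists. The cofactors were Pbx, Meis and Pknox proteins, which bind DNA together with Hox proteins. In the stroma 3 of the 8 cofactors tested were higher in each injury (all genes: 10.8% in UIR and 11.6% in UUO), among them Meis1 (log2 values 2.50 in UIR and 2.57 in UUO) and Meis2 (0.89 and 0.82). Control stroma was nearly all Fibro 3 (81 of 86 cells), whereas injured stroma also held Fibro 1 and Fibro 2. The part of this mix was not tested. Of the 15 chromatin regulators, which belong to the Polycomb and trithorax systems that hold Hox clusters silent or open, 3 of 13 were higher in DT in UIR and 4 in UUO, with 0 lower, where 13.5% and 14.9% of all genes were higher. They included the Polycomb ligase Rnf2 (0.82 and 0.78) and the H3K27 demethylase Kdm6b (0.65 and 0.83). In LOH 1 of 14 was higher and 1 lower in UIR (Kdm6b 0.58, Suz12 -0.70), and Suz12 alone was lower in UUO (-0.78).

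Retinoic acid is the signal best known to induce anterior Hox genes. Of the 14 genes of its axis, 2 of 8 tested in LOH were higher in UIR and 3 in UUO, with 0 lower, where 16.7% and 19.8% of all genes were higher. The receptor Rarg changed by 2.01 and 2.03 in LOH and by 1.22 and 1.33 in DT, where it was the only 1 of 4 called. Aldh1a2, an enzyme that makes retinoic acid, was higher in LOH by 3.03 and 4.25. Only 110 of 1314 UIR and 8 of 778 UUO cells of LOH lay in clusters with at least 20 control cells. The part of this in the list changes was not tested. In CD-P 0 of 5 genes of the axis were higher and 1 was lower, Aldh1a1 (-1.79). Over both injuries in PT, CD-P, CD-I and Endo, 1 of 34 gene and class tests of the cofactor list was higher and 1 lower (all genes: 6.26% and 5.64%). In these classes and the stroma the chromatin list had 3 of 125 higher and 2 lower (all genes: 7.39% and 5.64%). The retinoic acid list had 12 of 52 higher and 3 lower in PT, CD-I, Endo and stroma (all genes: 7.9% and 5.89%).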

How the data were processed

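Single-cell RNA-seq was analysed in 11 kidney libraries. Per the labels and file headers, the authors aligned reads to mm10 with Cell Ranger 3.1.0, whereas the paper's methods name a later version, and deposited raw matrices of UMI counts per gene and barcode, without normalization. The paper's methods describe digestion with a cold active protease.

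Cells were separated from empty droplets (at least 500 UMIs, a multinomial test with 10000 simulations for barcodes under the library's UMI cutoff, FDR 0.01), with at most 30% mitochondrial UMIs, 5% haemoglobin UMIs and at least 200 genes. The 7.5% of barcodes with the most simulated doublets among their neighbours were removed per library, after the rate in the study. Cells were clustered (2000 variable genes, 40 components, 20 neighbours, Leiden resolution 1) and clusters named by marker genes. Hox genes, marker genes and genes of the cofactor, chromatin and retinoic acid lists were left out of the variable genes. The limits for naming, among them a gap of 0.05 between the best 2 scores under which a cluster stayed tied, were set after the files had been read. A difference from the study may come from these rebuilt names. Counts were summed per library and class where a pool held at least 20 cells.

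Pools were tested with edgeR 4.0.16 (quasi-likelihood test, TMM, filter on low counts, Benjamini-Hochberg adjustment over all genes of a class, R 4.3.3), with all 3 groups in 1 fit per class and, between classes, the library as a block. The methods give 3 mice per injury model, and p-values measure the spread between libraries. Log2 fold changes of Hoxd10 and Hoxd11 in the stroma were replaced by bounds. DESeq2 1.42.0 and the other alternatives are given in the closing section. The fits were tested on simulated data. Members, lists and comparisons were chosen with earlier results of these data known. Values per library were given for members called in a fit, named by the study or among the 5 highest of a class, up to 30 member and class pairs, 28 of them called, those with the largest change first. Further per-library values (Hoxb6 to Hoxb9 and Hoxd8 to Hoxd10 among them) and sub-clusters were chosen after their values were seen. The Poisson and floor bounds cover counting error only. Protein sequences were not used here. The result of 1 gene of the cofactor list is not reported here, so no count of that list is given for LOH and DT.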

Additional observations from a re-analysis of the deposited data

Results flagged for a closer look

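Single control libraries stood apart from the other 4 in 5 of the 28 groups of control libraries that were examined, by a gap that exceeded Dixon's 95% limit, which chance alone passes in about 1 group in 20. In LOH, AN2 held 21.4 CPM of Hoxa10 (the others 4.66 to 8.38 CPM) and 131 CPM of Hoxb9 (the others 72.6 to 85.4 CPM). N2 held 18.1 CPM of Hoxb5 in LOH (the others 33.1 to 37.3 CPM), and N1 held 233 CPM of Hoxd8 in LOH (the others 325 to 336 CPM). In CD-I, AN1 held 37.4 CPM of Hoxc9 (the others 9.83 to 17.6 CPM).

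The change after UIR differed between principal cells and other distal classes for some members, tested by an interaction term. For the mean of LOH, DT and CD-I minus CD-P, the difference of log2 fold changes was -0.55 ± 0.12 for Hoxd8 (SE, adjusted p = 0.000567) and 0.68 ± 0.12 for Hoxb9 (adjusted p = 6.54e-05). For LOH minus CD-P it was -0.84 ± 0.14 for Hoxd8 (adjusted p = 9.31e-06), -0.63 ± 0.23 for Hoxd4 (adjusted p = 0.0492), 0.85 ± 0.16 for Hoxb9 (adjusted p = 5.7e-05), 0.56 ± 0.18 for Hoxb7 (adjusted p = 0.0265), 0.58 ± 0.21 for Hoxb6 (adjusted p = 0.0433) and 1.31 ± 0.27 for Hoxb2 (adjusted p = 0.000367). For DT minus CD-P it was 0.91 ± 0.15 for Hoxb9 (adjusted p = 2.76e-05), and for CD-I minus CD-P -0.48 ± 0.15 for Hoxd8 (adjusted p = 0.0458). Leaving out single libraries ended the LOH differences of Hoxd4 (8 libraries), Hoxb6 (6 libraries) and Hoxb7 (2 libraries) and the CD-I difference of Hoxd8 (8 libraries). Over all 9986 genes, 697 were higher and 555 lower for the mean, 951 and 826 for LOH, 536 and 545 for DT and 263 and 268 for CD-I. Of 24 members, 1 was higher and 1 lower for the mean, 4 and 2 for LOH, 1 and 0 for DT and 0 and 1 for CD-I. The counts for the mean, DT and CD-I are therefore not read as results about the members.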

How the results depend on the processing

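Depth limits the control LOH, CD-I and stromal pools, and calls in small pools rest on few UMIs. Member and class calls in UIR numbered 33 of 146 as reported (all gene tests called higher and lower: 9.06% and 7.36%), 15 of 84 with a mitochondrial limit of 15% (5.77% and 4.92%), 5 of 101 in clusters with 20 or more control cells (2.68% and 1.8%) and 21 to 34 without 1 library. In UUO they numbered 36 of 134 in 6 classes as reported (11.4% and 9.96%), 19 of 84 with the 15% limit (6.27% and 6.12%), 55 of 155 in 7 classes, CD-P included, at Leiden resolution 2 (12.7% and 11.5%), 6 of 66 in the clusters with control cells (2.61% and 2.4%) and 27 to 35 without 1 library. The 15% limit could be fitted in 4 classes only, where the 30% limit gave 22 and 26 of 90. UUO against UIR had 0 calls as reported but gained some under several alternatives. These were DESeq2, no filter, each cell named by its own markers, resolution 2, the tied cluster as distal tubule and some fits without 1 library. Their shares over all genes are not given here, so no count is read from them. With the 15% limit, principal cells had 9 calls of 18 tested and endothelium 7 of 21. Only 1 control library kept a principal pool at that limit. The 9 calls therefore lack replicates of the principal cells and are not read as a result. Without 1 library the calls numbered 20 to 21 for principal cells, 13 to 16 for endothelium, 26 to 28 for the stroma and 11 to 13 for Fibro 1. Shares over all genes are not given here for the fits without 1 library, so their counts are not read as results about the members. The interaction had 2 calls, 10 with cells named by their own markers and 16 with the tied cluster as principal cells. It had 5 calls under total counts and 2 to 3 without 1 library. For the interaction, shares over all genes are given above only for the reported and the tied-cluster fits. Its other counts are therefore not read as results about the members. The median share of control LOH cells with a Hox UMI was 44.0% at 500 UMIs and 91.1% without thinning.

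The clusters with control cells reversed the log2 fold change of Hoxb3 in DT in UUO (-0.36) and in LOH in UIR (-0.36), of Hoxb5 in DT in UIR (-0.25) and UUO (-1.23), and in DT in UIR of Hoxb6 (-0.055) and Hoxc8 (-0.32). None of the 6 passed the test there, and fewer cells were used. Of 1572 alternative values for the 30 member and class pairs, 1449 kept their direction and side of the threshold, 103 lost their call, 14 gained one and 6 reversed. The tied-cluster, low-depth, control-cell and total-count alternatives were chosen after seeing the data.

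The replicate numbers did not pair the libraries: over the classes, deviations of UIR1 and UUO1 correlated from -0.02 to 0.08 and those of UIR2 and UUO2 from -0.15 to 0.09. The UIR and UUO libraries, which carry no number and had the highest free Hox RNA of their groups, correlated from 0.04 to 0.46. With the number as a replicate block, the calls in UIR and UUO were close in number to those reported (33 and 35), and 2 were made in UUO against UIR. The shares over all genes of this fit are not given here, so these counts are not read as results about the members.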
